A study of Homo sapiens with 49 samples.

Results

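OLFM1, the gene of the secreted glycoprotein olfactomedin 1, was followed in Ishikawa cells through vehicle and 7 concentrations of ethinyl estradiol (EE). Ishikawa is an epithelial line from a human adenocarcinoma of the endometrium, and EE is a synthetic estrogen used in contraceptive pills. All probe sets annotated to OLFM1 were taken, together with those of the related genes OLFM2, OLFML2A, OLFML2B and OLFML3 for comparison, which gave 5 of 19774 annotated genes and 7 of the 54715 probe sets on the arrays, 3 of them for OLFM1. OLFM1 was selected on its response to EE in these same data, so its levels and changes are given as a description and without a test. The comparison genes were named by their family, with earlier results of the data known.

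The cells were held for 72 h in phenol red-free medium with charcoal-stripped serum, to which ethanol had been added in every group at 0.1% by volume. The groups were the ethanol vehicle (6 arrays) and EE at 0.1 pM (6 arrays), 0.3 pM (7 arrays), and 1, 3, 10, 100 and 1000 pM (6 arrays each), 49 arrays in all. Treatment medium was partly renewed each day. The labels do not tell whether replicates were separate cultures, so that the spread between arrays, and every p-value resting on it, may be technical; Ishikawa is a single tumour line and stands for no donor of normal endometrium.

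Olfactomedin 1, also called noelin 1 or pancortin, is a secreted member of a family that shares the olfactomedin domain, a propeller-shaped fold that binds other proteins outside the cell. It is best known from neurons, where it has been found with AMPA-type glutamate receptors and with the Nogo receptor, a brake on axon growth. In the human endometrium it has been studied for a role in the attachment of the embryo to the uterine epithelium. Estrogens act through estrogen receptors, which bind DNA at a palindromic element or are recruited through other factors.

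Promoter sequences are shown first because OLFM1 and OLFML3, the olfactomedin genes whose levels were higher at high EE, are set side by side in them. Each window runs from 250 bases before to 50 bases after an annotated start, 5′ to 3′ on the strand of the gene, and comes from RefSeq on GRCh38.p14. Capitals mark GC boxes (GGGCGG, or CCGCCC on the other strand). The first and the last of the 3 OLFM1 windows, at chr9:135075255-135075554 and chr9:135087418-135087717 on the plus strand, and the OLFML3 window, at chr1:113979224-113979523 on the plus strand, read as follows.
OLFM1 first window: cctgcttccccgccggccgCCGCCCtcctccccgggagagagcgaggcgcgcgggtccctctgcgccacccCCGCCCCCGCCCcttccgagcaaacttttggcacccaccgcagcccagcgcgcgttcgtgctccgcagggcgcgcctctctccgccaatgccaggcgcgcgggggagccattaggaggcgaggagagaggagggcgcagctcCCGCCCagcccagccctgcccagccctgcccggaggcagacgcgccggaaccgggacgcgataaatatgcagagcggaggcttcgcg
OLFM1 last window: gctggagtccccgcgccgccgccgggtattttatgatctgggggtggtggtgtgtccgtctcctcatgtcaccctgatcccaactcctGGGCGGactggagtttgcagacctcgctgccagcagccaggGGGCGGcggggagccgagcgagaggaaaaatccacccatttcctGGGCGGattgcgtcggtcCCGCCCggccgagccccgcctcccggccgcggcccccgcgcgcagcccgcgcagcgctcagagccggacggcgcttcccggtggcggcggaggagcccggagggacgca
OLFML3 window: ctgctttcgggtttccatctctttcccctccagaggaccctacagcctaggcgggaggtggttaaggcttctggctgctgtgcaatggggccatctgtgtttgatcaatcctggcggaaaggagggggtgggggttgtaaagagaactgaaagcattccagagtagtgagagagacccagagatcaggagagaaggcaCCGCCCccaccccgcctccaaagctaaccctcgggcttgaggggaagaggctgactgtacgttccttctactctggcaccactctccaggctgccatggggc

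The 3 OLFM1 windows, including one at chr9:135087010-135087309 that is not printed, held 4, 0 and 4 GC boxes and had 74.7%, 70.3% and 72.3% G and C bases. The OLFML3 window held 1 GC box and had 58.0% G and C. Neither gene had the palindromic estrogen response element GGTCANNNTGACC in any of these windows. The single arm of that element, GGTCA, or TGACC on the other strand, was not in them either, and every full element also counts as an arm. Among the other comparison genes, 1 window of OLFM2, 1 of OLFML2A and that of OLFML2B held an arm but no full element. Over 35116 RefSeq promoter windows of the same length, 0.057% held the full element, 37.4% an arm and 45.0% a GC box. A TATA box, searched as TATAAA, or TTTATA on the other strand, was in 11.5% of them and in none of the windows of OLFM1 and OLFML3. A missing match says only that these letters do not occur in the 300 bases searched.

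OLFM1 mRNA was far higher at high EE than in vehicle, and its level was graded over the range between 1 pM and 100 pM. All levels below are deposited log2 expression levels, on which a difference of 1 is a doubling, and a log2 level of 4 is used as the floor under which a probe set is treated as dim. With probe set 213131_PM_at, the brightest of the gene, vehicle arrays ranged from 4.02 to 5.89 with a median of 4.54. Arrays at 0.1 pM ranged from 4.05 to 5.74 (median 4.63) and those at 0.3 pM from 4.59 to 5.77 (median 4.78). These first 3 groups overlapped almost fully.

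At 1 pM the levels lay between 4.97 and 6.16 with a median of 5.42, so that all 6 arrays were above the vehicle mean while the 2 highest vehicle arrays (5.41 and 5.89) still lay inside the range. At 3 pM they lay between 5.77 and 6.90 (median 6.67), and at 10 pM between 7.27 and 8.05 (median 7.71). At 100 pM they lay between 8.71 and 9.08 (median 8.92). The 1000 pM arrays lay between 8.72 and 9.30 (median 9.11), in the same range as those at 100 pM. Every array at 10 pM and above was higher than every vehicle array, and only 1 array at 3 pM, at 5.77, fell inside the vehicle range.

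**Figure D1:**
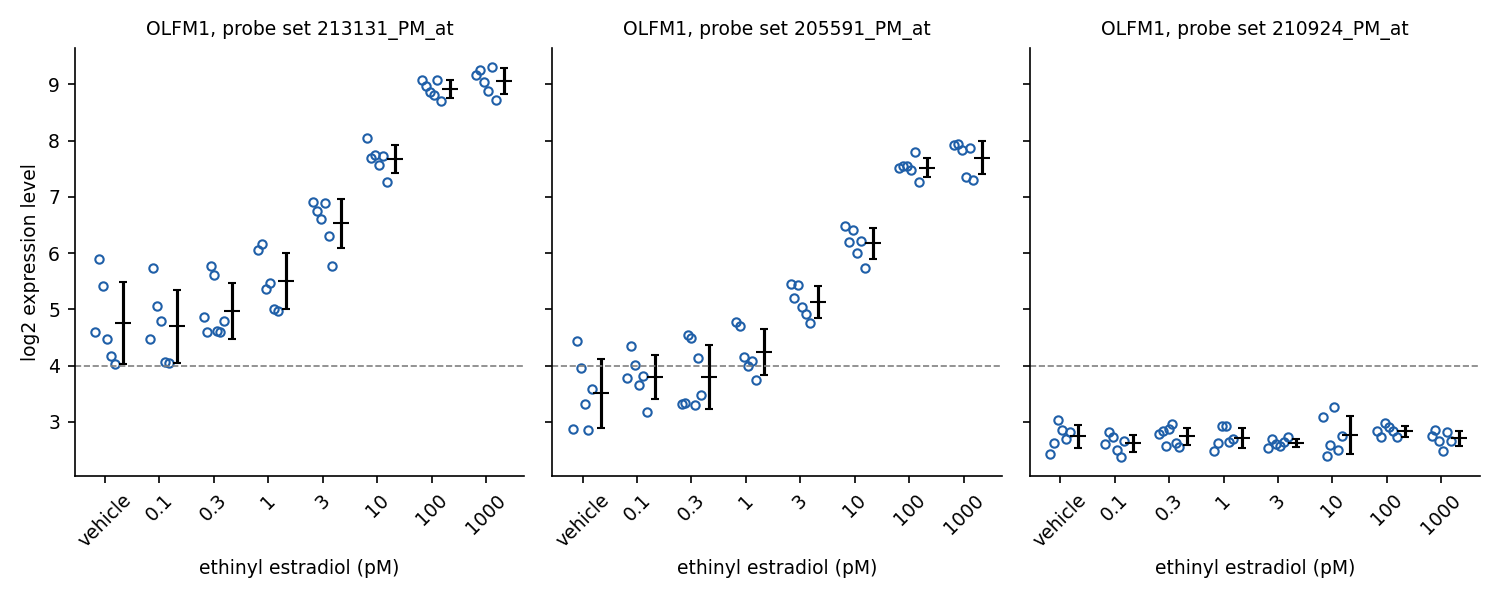
Log2 expression level of the 3 OLFM1 probe sets on each array (circles) by EE concentration in pM, with the group mean and SD (bars) beside the circles and the floor of 4 as a dashed line. In 213131_PM_at and 205591_PM_at the group means climb between 1 and 100 pM and lie close together at 100 and 1000 pM, and 210924_PM_at stays under the floor on all 49 arrays.

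Relative to vehicle (4.76 ± 0.73, SD, n = 6), the mean log2 level of OLFM1 differed by −0.07 ± 0.26 (SE) at 0.1 pM, 0.21 ± 0.25 at 0.3 pM and 0.74 ± 0.26 at 1 pM. The differences were 1.77 ± 0.26 at 3 pM, 2.91 ± 0.26 at 10 pM, 4.16 ± 0.26 at 100 pM and 4.30 ± 0.26 at 1000 pM. As folds, the last 5 came to 1.67, 3.41, 7.52, 17.8 and 19.7. Among the 11075 genes measured, meaning those above the floor on at least 6 arrays, OLFM1 had the largest mean increase over vehicle at 1 pM and at 3 pM, and the 2nd largest at 10, 100 and 1000 pM. At 1 pM 0 of the 11075 genes passed at a limma adjusted p under 0.05, so that the rank there is one among differences that did not pass. The spread of OLFM1 between arrays of a group was also larger than that of 99.4% of genes. Since the OLFM1 differences are the values for which the gene was picked, they carry no p-value here.

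Ordered from low to high, the OLFM1 group means ran 0.1 pM (4.70 ± 0.65), vehicle, 0.3 pM (4.97 ± 0.50), 1 pM (5.50 ± 0.51), 3 pM (6.53 ± 0.44), 10 pM (7.67 ± 0.25), 100 pM (8.92 ± 0.15) and 1000 pM (9.06 ± 0.23). The array ranges of neighbouring concentrations overlapped at every step up to 3 pM and again between 1000 pM and 100 pM. They were apart between 10 pM and 3 pM, where the mean step was 1.14 (95% interval 0.61 to 1.67), and between 100 pM and 10 pM, where it was 1.25 (0.72 to 1.77). The step to 3 pM from 1 pM was 1.03 (0.50 to 1.56). The last step, to 1000 pM from 100 pM, was 0.14, with an interval of −0.38 to 0.67 that allows both a small fall and a rise of more than 1.5-fold. All these intervals rest on 1 estimate of spread shared by all groups, while the SDs were 0.15 at 100 pM and 0.23 at 1000 pM. The last interval may thus be too wide, and the SEs of differences from vehicle (SD 0.73) too small. Measured against the difference at 1000 pM, 17.3% of it was present at 1 pM, 41.2% at 3 pM, 67.7% at 10 pM and 96.7% at 100 pM.

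The second OLFM1 probe set, 205591_PM_at, gave nearly the same profile of differences. Its vehicle arrays lay between 2.86 and 4.44 with a median of 3.44, and only 1 of the 6 exceeded the floor. At 3 pM its arrays lay between 4.77 and 5.45 (median 5.12), at 10 pM between 5.74 and 6.49 (median 6.20), at 100 pM between 7.26 and 7.79 (median 7.53) and at 1000 pM between 7.29 and 7.93 (median 7.84). From 3 pM up every array was therefore above every vehicle array. The mean differences from vehicle were 0.29 at 0.1 and at 0.3 pM, 0.74 at 1 pM, 1.63 at 3 pM, 2.67 at 10 pM, 4.02 at 100 pM and 4.19 at 1000 pM (SE 0.23, or 0.22 at 0.3 pM). With vehicle largely under the floor, where the deposited method compresses signals, the size of these differences is uncertain at the low end.

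The third OLFM1 probe set, 210924_PM_at, did not rise above the floor on any array. Its levels lay between 2.38 and 3.27 over all groups, with group means of 2.62 to 2.83 that showed no order by concentration. The files do not say which transcripts each probe set reads, and a probe set under the floor gives no statement on the RNA it was designed for.

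The concentration at which OLFM1 reached the midpoint of its log2 change was 4.42 pM, with a 95% interval of 3.16 to 6.17 pM, from a saturating (Hill) curve of slope 1 with R2 = 0.94 over the 49 arrays. The midpoint intervals take the spread as equal at all concentrations, which it was not for OLFM1. When the slope was fitted too, it came to 1.0 and the midpoint to 4.37 pM. Probe set 205591_PM_at gave 5.50 pM (4.03 to 7.50 pM). On this scale OLFM1 had the 4th lowest midpoint among 45 genes with higher levels at high EE, group means spanning at least 1 and curves with R2 of at least 0.8, after TGFA, DEPTOR and SLCO2A1, and the median of the 45 was 13.0 pM. The OLFM1 interval overlapped those of genes on either side, such as TGFA (2.46 to 5.89 pM) and THBS1 (3.16 to 9.12 pM), so that the rank is not resolved. Some of the 45 had fitted bottoms under the floor, where signals are compressed. Among them were MSMB (2.02) and NPPC (2.06), with higher midpoints than OLFM1, and SLCO2A1 (3.56), with a lower one. The part of this in the midpoints and ranks was not tested.

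The midpoint depends on the scale. A log2 midpoint marks a level at which a strongly changed RNA has made only a small part of its linear gain, and when the curve was fitted to linear values instead, OLFM1 had a midpoint of 18.6 pM (14.5 to 24.3 pM). It was then the 14th lowest of the same 45 genes, whose median was 26.6 pM. PGR, the progesterone receptor gene and a classical estrogen target, had midpoints of 7.33 pM (5.82 to 9.33 pM) on the log2 scale and 37.2 pM (30.9 to 45.2 pM) on the linear scale. These came from its brightest probe set alone. GREB1, an estrogen receptor cofactor that is itself an estrogen target, had 12.6 pM (9.89 to 16.2 pM) and 26.6 pM (21.9 to 32.4 pM). The OLFM1 interval of 213131_PM_at lay below that of GREB1 on the log2 scale but overlapped it on the linear scale. It lay below that of PGR on the linear scale but overlapped it on the log2 scale. Probe set 205591_PM_at had a linear midpoint of 22.4 pM (16.6 to 30.9 pM), an interval that reached the lower end of that of PGR. The order of these genes was not tested.

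**Figure D2:**
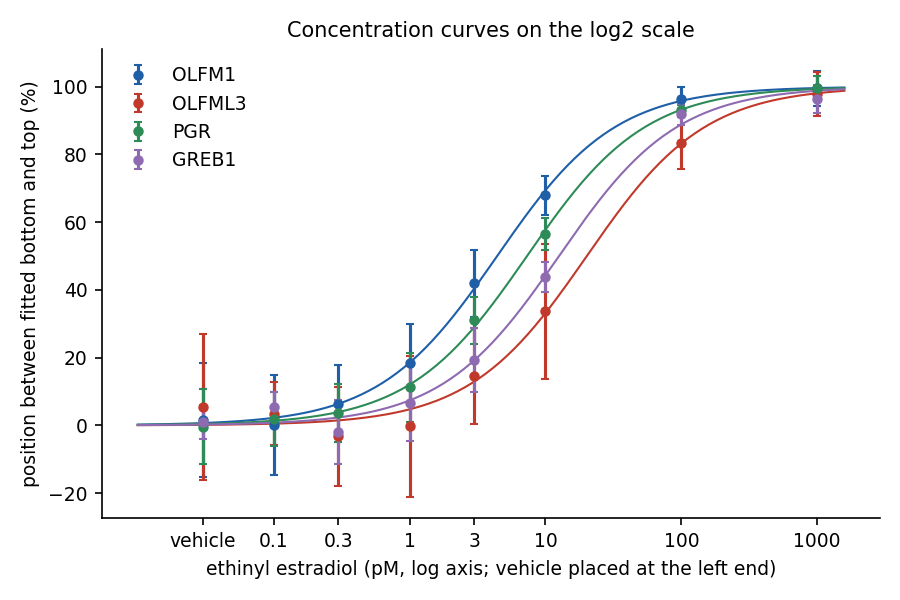
Fitted concentration curves of OLFM1, OLFML3, PGR and GREB1 on the log2 scale. Points are group means and bars SD, placed between the fitted bottom (0%) and top (100%) of each gene, against EE in pM on a log axis with vehicle set at the left end. The midpoints are 4.42 pM for OLFM1, 7.33 pM for PGR, 12.6 pM for GREB1 and 20.2 pM for OLFML3.

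OLFML3, olfactomedin-like 3, was the other olfactomedin gene with a higher level at high EE. It encodes a secreted glycoprotein, studied in the frog for its binding of chordin, an inhibitor of bone morphogenetic proteins, and in the mouse in blood vessels. Vehicle arrays lay between 3.00 and 4.43 with a median of 3.96. The arrays at 0.1, 0.3, 1 and 3 pM had medians of 3.93, 3.62, 3.67 and 3.99, all at or under the floor of 4. At 10 pM they lay between 3.97 and 5.18 (median 4.64), at 100 pM between 5.41 and 5.84 (median 5.68) and at 1000 pM between 5.79 and 6.14 (median 6.05). The 100 and 1000 pM arrays all lay above all vehicle arrays, and those at 10 pM overlapped them.

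Against vehicle (3.89 ± 0.49, n = 6) OLFML3 rose by 1.77 ± 0.19 (SE) at 100 pM, 3.41-fold, and by 2.10 ± 0.19 at 1000 pM, 4.27-fold. Limma's moderated test with Benjamini-Hochberg adjustment over 11075 genes gave adjusted p = 1.63e-09 and 7.05e-12. At these concentrations 10.1% and 7.21% of all genes passed in either direction, and OLFML3 had the 16th largest increase at each. Only 3 of the 6 vehicle arrays exceeded the floor and their mean lay under it, where signals are compressed, so that the sizes of these folds and the ranks are uncertain. At 10 pM the difference of 0.64 ± 0.19, positive on 6 of 6 arrays relative to the vehicle mean, did not pass (adjusted p = 0.126), and 0.858% of genes did; the range of adjusted p over the alternatives was 0.0253 to 0.775. At 3 pM and below, where 0.153% of genes (3 pM) or 0% (0.1, 0.3 and 1 pM, with 467, 288 and 883 genes at an unadjusted p under 0.05) passed, the differences lay between −0.20 and 0.20 and did not pass.

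At low EE a smaller share of the difference was present in OLFML3 than in OLFM1, though the genes were not tested against each other. Of the OLFML3 difference at 1000 pM, 9.66% was present at 3 pM, 30.5% at 10 pM and 84.4% at 100 pM, against 41.2%, 67.7% and 96.7% for OLFM1. The OLFML3 midpoint was 20.2 pM (11.5 to 37.2 pM) on the log2 scale and 41.2 pM (27.2 to 61.0 pM) on the linear scale. Neither interval overlapped that of OLFM1 213131_PM_at on its scale. On the linear scale the interval of the other OLFM1 probe set, 205591_PM_at (16.6 to 30.9 pM), did overlap that of OLFML3. Among the same 45 genes OLFML3 ranked 36th and 34th from the lowest. From vehicle to 1 pM 8 of the 25 arrays were above the floor for OLFML3, beside 25 of 25 for OLFM1, and the part of this in the midpoints was not tested.

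**Figure D3:**
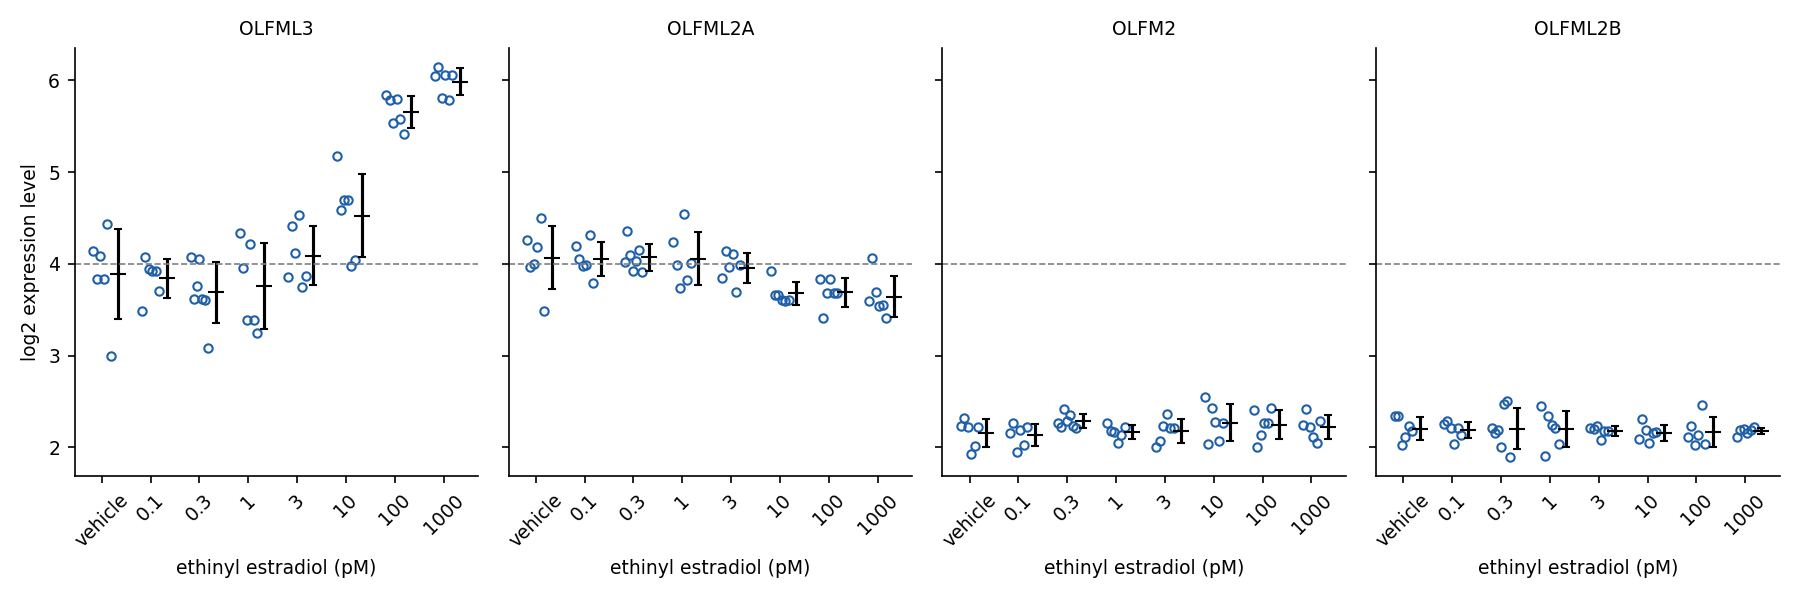
Log2 expression level of OLFML3, OLFML2A, OLFM2 and OLFML2B on each array (circles) by EE concentration in pM, with group mean and SD (bars) and the floor of 4 (dashed). OLFML3 lies at 5.41 or above on the 100 and 1000 pM arrays, OLFML2A stays within 3.41 to 4.54, and OLFM2 and OLFML2B are under the floor on all arrays.

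OLFML2A, one of the photomedins, which bind sulfated sugar chains of the matrix in the mouse, was slightly lower at high EE, at levels around the floor. Vehicle arrays lay between 3.49 and 4.50 (median 4.09), and those at 0.1, 0.3, 1 and 3 pM had medians of 4.02, 4.04, 4.00 and 3.98. At 10 pM the range was 3.60 to 3.93 (median 3.64), at 100 pM 3.41 to 3.84 (median 3.69) and at 1000 pM 3.41 to 4.06 (median 3.57). At 10 and 100 pM 0 of the 12 arrays exceeded the floor, so that no fold is given.

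The OLFML2A difference from vehicle was −0.39 ± 0.13 at 10 pM (limma adjusted p = 0.164), −0.38 ± 0.13 at 100 pM (adjusted p = 0.0465) and −0.42 ± 0.13 at 1000 pM (adjusted p = 0.0274), and all 18 arrays lay below the vehicle mean. The call at 100 pM was lost in 15 of 22 alternatives, with adjusted p between 0.00479 and 0.233, and that at 1000 pM in 11 of 22. Without vehicle replicate 5 the difference at 1000 pM was −0.34 with adjusted p = 0.113, and it was also not called without vehicle replicate 1 or 4 or without 1000 pM replicate 1, 4, 5 or 6. Without the 4 arrays of high beta-actin difference described below it was −0.29 (adjusted p = 0.19), and over all alternatives the adjusted p ranged from 0.00183 to 0.29.

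OLFM2, which encodes noelin 2, and OLFML2B, the other photomedin, were under the floor on all 49 arrays, with highest values of 2.55 and 2.50. No statement on a change can be drawn from them. Of the 7 probe sets 4 passed the filter on low values, 2 of OLFM1 and 1 each of OLFML2A and OLFML3. From vehicle to 1 pM 8 of the 25 arrays exceeded the floor for OLFML3, 10 for 205591_PM_at, 14 for OLFML2A and 25 for 213131_PM_at, so that each of the 4 would have passed without the higher concentrations.

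The wider set of genes with an olfactomedin domain had 13 listed members, and besides OLFM1 4 were measured. At 100 pM and at 1000 pM 1 of these 4 rose (OLFML3), 1 fell (OLFML2A) and 2 did not pass, where 3.85% and 2.88% of all genes rose and 6.27% and 4.33% fell. The OLFML2A call was lost in 15 of 22 alternatives at 100 pM and in 11 of 22 at 1000 pM. At 10 pM, where 0.506% of all genes rose and 0.352% fell, and below, 0 of the 4 passed by limma, with 2 at an unadjusted p under 0.05 at 10 pM and 0 at lower concentrations. The 2 that did not pass were the latrophilins ADGRL1 and ADGRL2, adhesion receptors whose extracellular part carries the domain, with differences of 0.03 ± 0.10 and 0.04 ± 0.08 at 1000 pM (adjusted p = 0.89 and 0.847). The median difference of the 4 at 1000 pM was 0.03, beside −0.01 over all genes. OLFM3, OLFM4, OLFML1, MYOC (myocilin), GLDN (gliomedin) and ADGRL3 did not enter the fit.

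Genes whose products have been reported to bind olfactomedin 1 or to belong to its receptor complexes in neurons were few among the measured genes. Of 11 listed, 4 were measured, and by limma 0 of the 4 passed at any concentration, where 10.1% of all genes passed at 100 pM and 7.21% at 1000 pM, with 1 at an unadjusted p under 0.05 at 100 pM (GRIA2) and 0 at the others. At 1000 pM the differences were −0.08 ± 0.12 for LINGO1, a co-receptor of the Nogo receptor, 0.02 ± 0.08 for RTN4, which encodes Nogo itself, −0.03 ± 0.12 for the AMPA receptor subunit gene GRIA2 and 0.04 ± 0.10 for APP, the amyloid precursor protein gene. Their median was −0.01, the same as over all genes to 2 decimals. RTN4R, the Nogo receptor gene, stayed under the floor on all arrays, with a highest value of 3.99. NGFR, GRIA1, GRIA3, GRIA4 and WIF1 did so too, and TNFRSF19 exceeded the floor on 1 array.

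The measured genes nearest to OLFM1 on chromosome 9 are set beside the shares of all genes that passed. OLFM1 was picked for its large change, so that smaller differences in its neighbours carry no statement on the locus. In the gene order of RefSeq, the 5 nearest measured genes before OLFM1 were VAV2, BRD3OS, BRD3, WDR5 and RXRA, and the 5 after it PPP1R26, PIERCE1, MRPS2, SOHLH1 and CAMSAP1. At 1000 pM limma called 0 of the 10, where 7.21% of all genes passed, with differences between −0.13 ± 0.08 (BRD3) and 0.22 ± 0.11 (PIERCE1, the only one with an unadjusted p under 0.05). At 100 pM RXRA, a partner of many nuclear receptors, was lower, at −0.30 ± 0.10 (adjusted p = 0.0474), and the other 9 did not pass, where 10.1% of all genes did.

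**Figure D4:**
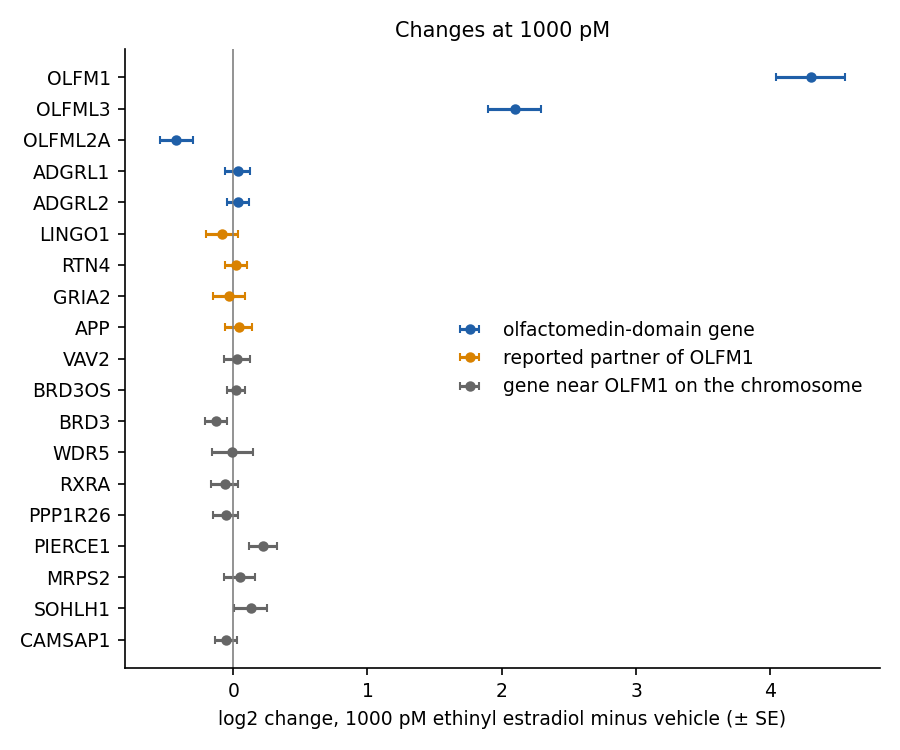
Log2 change at 1000 pM EE minus vehicle (points) with its SE (bars) for the measured olfactomedin-domain genes, the measured genes reported to act with olfactomedin 1, and the 10 nearest measured genes on chromosome 9. OLFM1 (4.30) and OLFML3 (2.10) stand to the right, and the genes near OLFM1 lie between −0.13 and 0.22.

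The profile of OLFM1 over the 8 group means was compared with that of each of the 82 measured genes whose means spanned at least 1 on the log2 scale. The means share arrays and normalization and most of these genes differ mainly between low and high EE, so high correlations are common: 37 of them had Pearson r over 0.95 with OLFM1 and 11 lay as far on the negative side. The highest were DEPTOR, an inhibitor of the mTOR kinase (r = 0.998), TGFA, a ligand of the epidermal growth factor receptor (0.996), PGR (0.993) and SLCO2A1, a prostaglandin transporter (0.992). After them came the imprinted, retrotransposon-derived PEG10 (0.990), the matricellular protein gene THBS1 (0.989), RHOBTB1 (0.989) and the collagen gene COL1A2 (0.988). OLFML3 ranked 40th (0.941) and GREB1 26th (0.968). With Spearman's rho in place of Pearson's r, 3 of these 8 genes remained among the highest 8.

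These look-alikes differed widely in size. At 1000 pM DEPTOR averaged 10.23 against 9.13 in vehicle, a difference of 1.10 ± 0.07, and TGFA 10.25 against 9.12 in vehicle, a difference of 1.13 ± 0.09. PGR averaged 9.15 at 1000 pM and 4.02 in vehicle, a difference of 5.13 ± 0.21 and the one increase larger than that of OLFM1. Of the difference at 1000 pM, 24.4% was present at 1 pM in DEPTOR and 24.5% in TGFA, beside 17.3% in OLFM1 and 11.6% in PGR. SLCO2A1 averaged 5.38 at 1000 pM and 3.65 in vehicle, where no array exceeded the floor.

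Profiles opposite to that of OLFM1 belonged to NTNG1, which encodes the axon guidance protein netrin G1 (r = −0.997), SMIM5, a small membrane protein gene (−0.987), the keratin gene KRT80 (−0.983) and L1CAM, a cell adhesion molecule of neurons and of some carcinomas (−0.982). NTNG1 averaged 4.16 at 1000 pM and 5.17 in vehicle, 0.499 times the vehicle level. L1CAM averaged 3.47 at 1000 pM, where no array exceeded the floor, and 4.63 in vehicle.

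OLFM1 was among the most variable genes between arrays of the same group. Its residual SD was 0.47 on the log2 scale, larger than that of 99.4% of genes, beside a median of 0.17 over all genes. That of PGR was 0.39, larger than in 97.8% of genes, with an SD of 0.57 in vehicle and 0.06 at 100 pM, and that of OLFML3 was 0.35, larger than in 96.1%. The OLFM1 spread was widest at low EE, with SDs of 0.73 in vehicle, 0.65 at 0.1 pM, 0.50 at 0.3 pM, 0.51 at 1 pM, 0.44 at 3 pM, 0.25 at 10 pM, 0.15 at 100 pM and 0.23 at 1000 pM. The vehicle values were 4.60, 5.89, 5.41, 4.48, 4.17 and 4.02, so that the highest vehicle array was above the median at 1 pM. The median SD of all genes was 0.23 in vehicle and 0.11 to 0.16 in the EE groups.

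The deviations of arrays from their group means were shared by both bright OLFM1 probe sets and, in part, by PGR. Over the 49 arrays, 213131_PM_at correlated with 205591_PM_at at Pearson r = 0.808 and Spearman rho = 0.772. Permuting arrays within groups gave p = 1e-05 for both, the smallest that the 100000 permutations used can give, or 5e-05 adjusted over the 5 relations examined. Both probe sets are annotated to the same gene and were read on the same arrays. Their correlation was thus likely in advance, and its p-value is no support for a finding. With PGR r was 0.684 (permutation p = 4e-05, adjusted 0.0001) and rho 0.654 (p = 3e-05, adjusted 7.5e-05). Leaving out the 2 arrays farthest from the median, vehicle replicate 2 and 0.1 pM replicate 2, gave r = 0.766 and 0.679.

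Correlations with GREB1 and OLFML3 were lower. GREB1 had r = 0.473 (permutation p = 0.002, adjusted 0.0034) and rho = 0.38 (p = 0.016, adjusted 0.021), and r = 0.442 without these 2 arrays. OLFML3 had r = 0.438 (permutation p = 0.0073, adjusted 0.0092) and rho = 0.49 (p = 0.0017, adjusted 0.0028), and r = 0.481 without them. Ranked by r with the OLFM1 deviations over 11074 genes, PGR was 8th, GREB1 536th and OLFML3 814th, and the first was PHLDB2 (0.726). Many other genes thus followed the OLFM1 deviations more closely than GREB1 and OLFML3 did. Arrays share labelling and normalization, and the labels name no culture, plate or day by which to group them. The arrays numbered replicate 6 lay below their group mean for OLFM1 in all 8 groups, with deviations of −0.77 to −0.21, and 2 of the 4 arrays described next are among them. Those numbered replicate 2 lay above their group mean in 7 of 8 groups. The permutations within groups take no account of the replicate number, so that their p-values may be too small. With the mean of each replicate number removed along with the group means, an alternative added after seeing the data, r was 0.765 for 205591_PM_at, 0.598 for PGR, 0.458 for GREB1 and 0.193 for OLFML3.

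**Figure D5:**
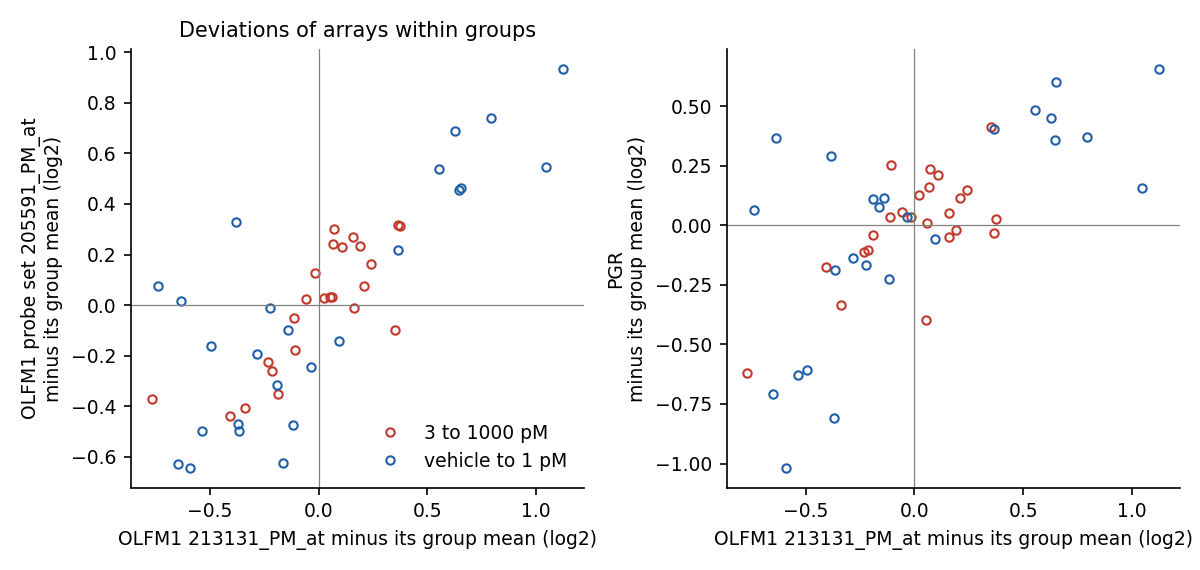
Deviation of each array from its group mean in log2 units, with OLFM1 213131_PM_at on the horizontal axis and OLFM1 205591_PM_at (left) or PGR (right) on the vertical axis; red circles are arrays at 3 to 1000 pM and blue circles those of vehicle to 1 pM. Both panels slope upward, with r = 0.808 and 0.684 over 49 arrays, and the widest deviations are among the low EE and vehicle arrays.

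The beta-actin control of 4 arrays stood apart from that of the rest. In these arrays (1000 pM replicate 6, 3 pM replicate 6, 0.3 pM replicate 2 and vehicle replicate 5) the 3′ minus 5′ difference of the beta-actin control probe sets, a measure of RNA integrity and labelling, was 2.67 to 4.62, against 0.80 to 2.06 in the other 45. All 4 lay below their group mean for OLFM1, by deviations of −0.77 to −0.34, while the other 45 ranged from −0.74 to 1.12. Without them the OLFM1 difference at 1000 pM was 4.25 and the midpoint 4.37 pM. Over all arrays the actin difference and the OLFM1 deviation had r = −0.236 (permutation p = 0.26, adjusted 0.26) and rho = −0.113 (p = 0.48, adjusted 0.48), with r = −0.273 without the 2 farthest arrays and 0.132 without these 4. Among the 24 arrays at 3 to 1000 pM r was −0.557, and among the 25 from vehicle to 1 pM it was −0.153, neither of them tested.

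The epithelial markers listed were measured and all but 1 of the markers of other cell types were not, which does not identify the line. The epithelial genes EPCAM, KRT8, KRT18, CDH1 and PAX8 were all measured, and at 1000 pM 0 of the 5 passed by limma, where 7.21% of all genes did, with 1 at an unadjusted p under 0.05. Of the immune, endothelial and stromal markers (PTPRC, CD3E and CD68; PECAM1, CDH5 and VWF; DCN, LUM and PDGFRB) 0 of 9 were measured, and of 4 neuronal markers 1 was, SNAP25, which did not pass at 1000 pM, while RBFOX3, SYT1 and STMN2 were under the floor on all arrays. ESR1, the estrogen receptor alpha gene, differed by 0.04 ± 0.05 at 1000 pM and did not pass at any concentration.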

How the data were processed

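Per the labels' protocols, total RNA was amplified from its 3′ end, biotin-labelled and hybridized to Affymetrix arrays, and 49 samples gave 49 arrays. The deposited values were log2 expression levels, tied to GCRMA and Partek by the submitters' processing notes, with no version given. Background correction and normalization were thus the authors', and GCRMA compresses dim signals.

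A probe set entered if its log2 level exceeded 4 on at least 6 arrays (22721 of 54715). For a gene with several, the brightest on average was used (11075 genes, from probe sets with 1 symbol). Group means were fitted with limma 3.58.1 (R 4.3.3, intensity trend, Benjamini-Hochberg adjustment, threshold 0.05), and curves with Python 3.11.15. All arrays were used, and their number limits the precision. The named genes were the members, the family and partner lists, the 8 most and 4 least alike profiles, the 5 measured neighbours on each side, and PGR, GREB1 and ESR1. Members, lists, alternatives and the limits on actin were chosen with earlier results of these data known. The calculations were tested on simulated data. For the curves these had the same spread at every concentration, so that they do not bear on midpoint intervals under unequal spread. Sequences were RefSeq's for GRCh38.p14, and all 5 member genes had a window.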

Additional observations from a re-analysis of the deposited data

Results flagged for a closer look

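Of 32 groups of arrays examined for a single array far from the rest (the 4 measured probe sets in 8 groups), 1 stood out, where chance gives about 1 in 20. It was OLFML2A at 10 pM, where replicate 1 had a log2 level of 3.93 and the other 5 arrays 3.60 to 3.67, so that the gap was 0.8 of the range. All these values lie under the floor of 4.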

How the results depend on the processing

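The direction of every OLFM1 difference from 0.3 pM up, and the OLFML3 calls at 100 and 1000 pM, held under all alternatives run; the OLFML2A call was lost in 15 of 22 at 100 pM and 11 of 22 at 1000 pM. With a floor of 5, with array weights, with vehicle and 1 concentration only, and without 2 or 4 arrays of high actin difference, 1 family member in place of 2 was called at 1000 pM; leaving out single arrays gave 1 to 2. Array weights put the OLFM1 difference at 100 pM at 3.97, and leaving out single arrays at 4.01 to 4.38 (205591_PM_at, 3.89 to 4.20). Genes called at 10 pM, 95 in all, came to 160 with array weights, 154 without the 4 arrays, 33 with vehicle and 10 pM only, and 69 to 145 without single arrays. With vehicle and 1 concentration only, limma called 0 genes at 3 pM in place of 17, 290 at 100 pM in place of 1120 and 308 at 1000 pM in place of 799; leaving out single arrays gave 710 (without vehicle replicate 5) to 1790 (without vehicle replicate 6) at 100 pM. Spearman's rho kept 3 of the 8 most alike genes, and the linear scale put the OLFM1 midpoint at 18.6 pM in place of 4.42 pM. OLFML3 at 10 pM was called with array weights (limma adjusted p = 0.0253) and without the 4 arrays (0.0366). The replicate numbers did not regularly pair the arrays with vehicle. By concentration, the lowest correlations of deviations were −0.575 to 0.004 and the highest 0.168 to 0.565, with 3 to 4 of 6 pairs over 0.1. For OLFM1 itself, though, replicate 6 lay below its group mean in all 8 groups. With the replicate number as a block the OLFM1 differences were 0.74 at 1 pM and 4.30 at 1000 pM, and the midpoint was 4.42 pM. In that limma fit OLFML3 at 10 pM was called at 0.64 (adjusted p = 0.0325). The cause of these shifts was not tested.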
